A study of Mus musculus with 3 samples.

Results

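Scavenger receptors are surface proteins that bind modified lipoproteins, microbes, dying cells and matrix debris and bring them into the cell. The levels of 10 scavenger receptor genes, of 55536 annotated genes in all, were taken from bone-marrow-derived macrophages of the mouse. The genes were chosen by symbol and gene identifier and not by a rule on their levels, though earlier results of these data were known. They are Marco, Msr1, Cd36, Scarb1, Mrc1, Stab1, Cd163, Olr1, Scarf1 and Lrp1.

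The cells were primary macrophages of the inbred strain C57BL/6J, and every library came from the same treatment. The cells were given Lipid A, the membrane anchor of bacterial endotoxin and the ligand of TLR4, at 100 ng/ml for 12 h, were kept without it for 12 h, and then met 100 ng/ml again for 20 min. Total RNA of the cytosolic fraction was sequenced after removal of ribosomal RNA, in 3 libraries that the labels number as biological replicates 1, 2 and 3. All carry the same donor identifier, sex and age were not recorded, and no library of untreated, once-treated or nuclear RNA was analysed here. The values are therefore levels in cells treated a second time, not responses, and errors are the SD over these 3 libraries, part of which may be technical.

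Scavenger receptors are grouped by structure. Class A receptors (Marco, Msr1) are collagen-like trimers that bind bacteria, particles and acetylated lipoprotein. Class B receptors (Cd36, Scarb1) are loops anchored in the membrane at both ends, and they handle oxidised lipoprotein, fatty acids and cholesterol of high-density lipoprotein. The others are multi-domain endocytic receptors of varied families, such as the mannose receptor Mrc1, the haemoglobin receptor Cd163 and the giant lipoprotein receptor Lrp1. In macrophages such receptors serve uptake of microbes and cell corpses and the storage of lipid seen in foam cells.

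The depth was 32055937, 43616634 and 47864978 expected counts on annotated genes in replicates 1, 2 and 3. Macrophage markers fitted the label, since 8 of 8 reached 1 TPM in every library, with Lyz2 highest. TPM is a transcript level per unit of length, with an equal total over all entries of every library. The summed TPM of 8 markers ranged from 5.19 to 15.3 for endothelium, 10.6 to 18.9 for neutrophils, 0.77 to 1.33 for dendritic cells, 1.13 to 2.70 for lymphocytes and 0.03 to 0.13 for stroma and fat. The highest of these were Kdr, S100a9, Ccr7, Cd79b and Dcn, and Ly6g, Cd209a, Pdgfra, Col3a1 and Adipoq had 0 counts. In bulk RNA, fewer cells that carry a receptor and less of its RNA per cell cannot be told apart.

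Of the 10 receptor genes, 8 stood at 1 TPM or more in every library, against 41.3% of all protein-coding genes. Marco, Lrp1 and Msr1 had the highest means and Cd163 and Olr1 were close to 0. The summed level of the 10 genes was 396, 326 and 512 TPM in replicates 1, 2 and 3. Without Marco the sum was 323, 273 and 333 TPM, so that the highest library exceeded the lowest by 1.22-fold in place of 1.57-fold. Among 22028 protein-coding genes ranked by mean TPM, Marco was at rank 443, Lrp1 at 513, Msr1 at 529, Stab1 at 852, Cd36 at 1234, Mrc1 at 2305, Scarb1 at 2824 and Scarf1 at 4944. Cd163 and Olr1 came at ranks 11683 and 12194.

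**Figure D1:**
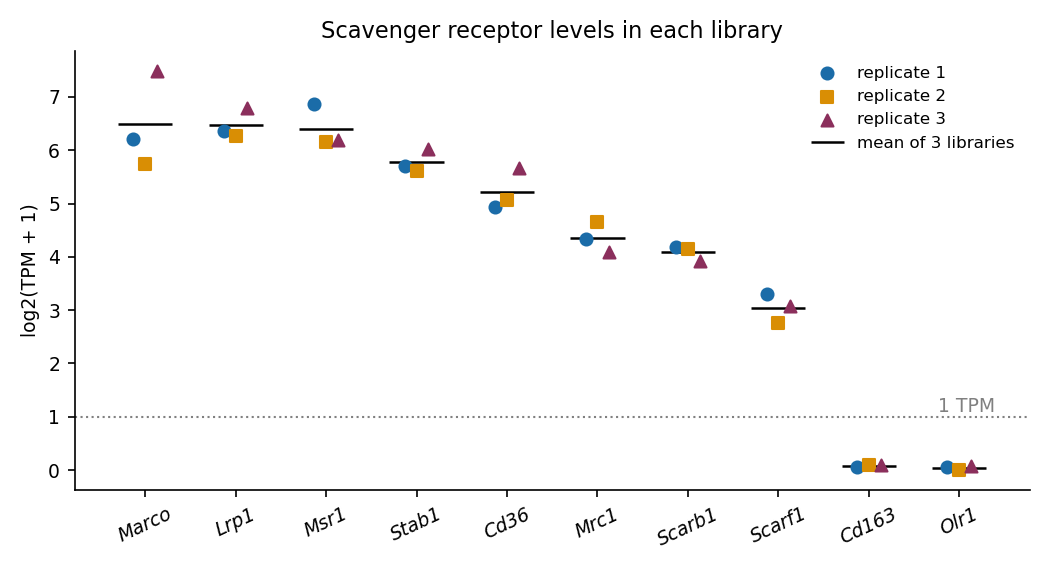
Level of each scavenger receptor gene as log2(TPM + 1) on the y axis, with 1 point per library and a line at the mean of the 3 libraries. The 8 genes from Marco to Scarf1 lie above the dotted line at 1 TPM in every library, and Cd163 and Olr1 lie near 0.

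Marco (ENSMUSG00000026390.7; mm10 chromosome 1, 120474538 to 120505024, minus strand) encodes a class A receptor of macrophages that binds bacteria and inhaled particles. Its level was 73.3, 52.7 and 179 TPM in replicates 1, 2 and 3 (102 ± 67.8, SD, n = 3), on 5854, 6939 and 24099 expected counts. Replicate 3 stood well above the other libraries, and the mean without it was 63.0 TPM. The deposited intervals of the quantification were 69.1 to 74.2, 50.5 to 53.6 and 174 to 180.1 TPM, so they were narrow beside the distance between libraries. Nearly all of the level, 94.8% ± 1.22, lay on the complete coding transcript Marco-201, of 518 codons.

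Msr1 (ENSMUSG00000025044.16; chromosome 8, 39581685 to 39642673, minus strand) encodes the other class A receptor, known from the uptake of acetylated lipoprotein. It reached 116, 70.3 and 72.4 TPM in replicates 1, 2 and 3 (86.1 ± 25.6, SD, n = 3). Replicate 1 was the highest library here, whereas Marco was highest in replicate 3. The ratio of Marco to Msr1 was accordingly 0.634, 0.749 and 2.47 in replicates 1, 2 and 3, and Marco exceeded Msr1 only in replicate 3 of these libraries.

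Splicing of Msr1 gives the long form SR-AI (transcript Msr1-201, 458 codons) and the short form SR-AII (Msr1-202, 354 codons), and SR-AI alone carries the cysteine-rich domain at the end of the chain. Both share the exon at chr8:39608085-39608138, minus strand, of 54 bases. The following exons, read from the GENCODE M21 transcripts on mm10, show where the forms part. Lower case marks the shared exon, and capitals mark bases that are in the coding part of that form alone, up to and with the stop codon. The first line ends with the exon at chr8:39589290-39589478, the next gives the coding part of the last exon of the same form at chr8:39581732-39581865, and the third line runs into the coding end of SR-AII at chr8:39605972-39605982.
SR-AI, ninth exon: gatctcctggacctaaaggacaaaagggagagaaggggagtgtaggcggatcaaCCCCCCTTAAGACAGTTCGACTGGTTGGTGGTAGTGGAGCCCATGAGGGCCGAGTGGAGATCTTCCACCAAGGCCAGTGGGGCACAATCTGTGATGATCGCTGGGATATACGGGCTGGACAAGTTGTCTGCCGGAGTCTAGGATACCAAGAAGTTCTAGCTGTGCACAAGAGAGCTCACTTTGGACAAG
SR-AI, last coding exon: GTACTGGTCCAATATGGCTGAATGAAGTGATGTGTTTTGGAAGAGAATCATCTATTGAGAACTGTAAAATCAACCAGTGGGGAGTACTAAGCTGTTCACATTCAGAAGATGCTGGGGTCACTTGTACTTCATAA
SR-AII: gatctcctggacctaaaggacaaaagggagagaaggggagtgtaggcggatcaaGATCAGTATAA
Thus 189 and 134 bases belong to SR-AI alone, in place of 11 bases in SR-AII.

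SR-AII held the larger share of Msr1 in the first quantification, that of the gene tables. Its share was 56.3%, 51.7% and 61.0% of the gene's TPM in replicates 1, 2 and 3, and that of SR-AI was 33.2%, 38.5% and 28.9%. The libraries did not overlap between the forms. In the second quantification, made separately for the same libraries with another table layout, the shares were 40.2%, 36.0% and 46.1% for SR-AII and 38.9%, 45.3% and 38.4% for SR-AI. There the forms overlapped, and SR-AI was the higher in replicate 2. The ratio of SR-AI to SR-AII was 0.602 ± 0.136 in the first and 1.02 ± 0.218 in the second quantification (SD, n = 3). In both, it was highest in replicate 2 and lowest in replicate 3. The annotated 3′ UTR is 47 bases long in Msr1-201 and 2518 bases in Msr1-202, and its part in the gap between the quantifications was not tested.

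Cd36 (ENSMUSG00000002944.15; chromosome 5, 17781690 to 17888801, minus strand) encodes the class B receptor for oxidised lipoprotein and long-chain fatty acids. It stood at 29.6, 32.4 and 49.8 TPM in replicates 1, 2 and 3 (37.3 ± 10.9, SD, n = 3). Replicate 3 was again the highest, as for Marco. Transcripts of Cd36 start in a distal, a middle and a proximal region. The 5 complete ones share a coding sequence of 472 codons, so they differ in untranslated sequence and not in the protein. Their annotated 3′ UTRs differ too, at 983 bases in Cd36-203, 864 in Cd36-206 and 1334 in Cd36-201. The part of these 3′ ends in the shares was not tested. The distal starts (bases 17888747 to 17888801) held 58.6%, 53.5% and 57.4% of the gene's TPM in replicates 1, 2 and 3. The proximal starts (17835696 to 17835717) held 35.1%, 40.7% and 38.4%, and the middle starts (17849729 to 17849792) 6.28%, 5.74% and 4.20%. The order of the regions was the same in every library, and the distal share varied less than the level.

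The second quantification gave 58.1% ± 1.28 distal, 3.23% ± 0.538 middle and 38.6% ± 1.77 proximal starts (SD, n = 3), in the same order. Within the distal region the quantifications differed. Cd36-203, of 2677 bases, held 56.0% ± 2.70 of the gene in the first and 38.5% ± 6.46 in the second. Cd36-205, a partial transcript of 702 bases singled out after its values were seen, held at most 0.88% in the first and 14.3%, 24.8% and 20.0% in the second. Cd36-206, the main proximal transcript, held 26.9% ± 1.39 and 34.3% ± 1.27.

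Scarb1 (ENSMUSG00000037936.15; chromosome 5, 125277087 to 125341094, minus strand) encodes the receptor that takes cholesterol from high-density lipoprotein. It varied least relative to its mean among the 8 present genes, at 17.3, 16.7 and 14.2 TPM in replicates 1, 2 and 3 (16.0 ± 1.65, SD, n = 3). Its known forms are SR-BI (Scarb1-201, 509 codons) and SR-BII (Scarb1-202, 506 codons), which differ in the tail that faces the cytosol. SR-BI includes an exon of 129 bases at chr5:125281105-125281233, minus strand, that SR-BII skips. It is printed in capitals throughout, with the stop codon at its end, because its presence tells the forms apart.
SR-BI exon: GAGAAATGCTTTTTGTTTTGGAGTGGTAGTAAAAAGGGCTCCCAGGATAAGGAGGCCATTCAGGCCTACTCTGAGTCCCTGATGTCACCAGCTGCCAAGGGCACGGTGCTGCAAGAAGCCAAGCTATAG
SR-BI held 82.4%, 83.4% and 84.5% of the gene's TPM in replicates 1, 2 and 3, and SR-BII 14.8%, 14.8% and 13.9%. The ratio of SR-BI to SR-BII was 5.76 ± 0.276 in the first and 6.95 ± 0.386 in the second quantification (SD, n = 3). SR-BI was thus the main form in every library of both quantifications.

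**Figure D2:**
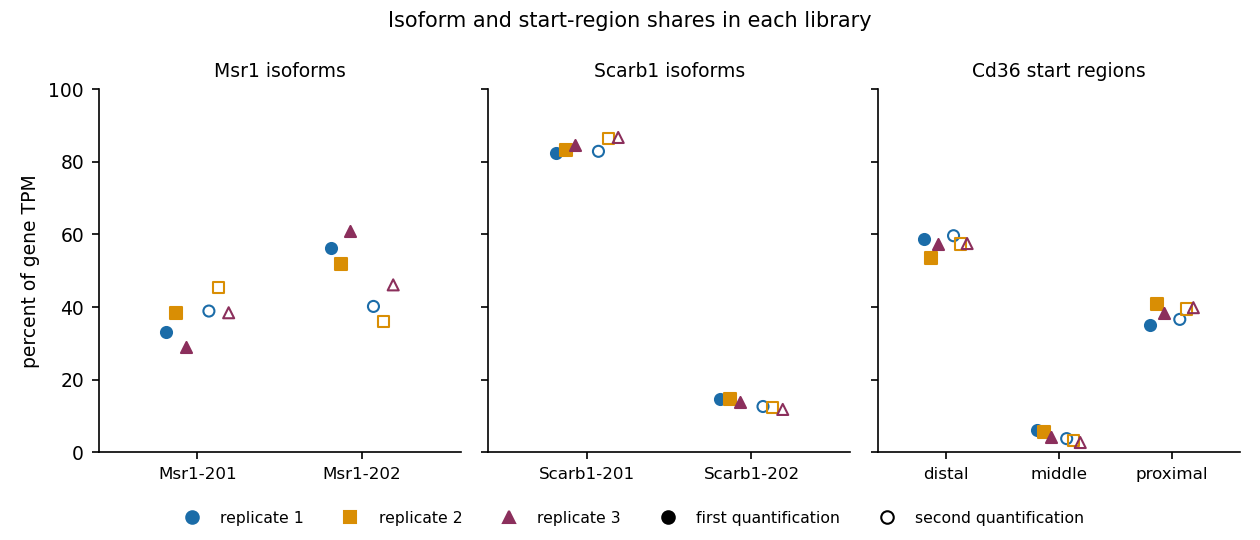
Share of the gene's TPM, in percent on the y axis, held by the forms of Msr1 and Scarb1 and by the start regions of Cd36, with 1 point per library and open symbols for the second quantification. SR-AII of Msr1 is the higher form in every library of the first quantification and in replicates 1 and 3 of the second, while SR-BI of Scarb1 stays between 82.4% and 86.7% and the distal starts of Cd36 between 53.5% and 59.6%.

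Mrc1 (ENSMUSG00000026712.3; chromosome 2, 14229392 to 14332057, plus strand) encodes the mannose receptor, which binds sugars on microbes and on spent glycoproteins. It stood at 19.2, 24.3 and 16.0 TPM in replicates 1, 2 and 3 (19.8 ± 4.21, SD, n = 3). On TPM it was the only one of the 8 present genes to be highest in replicate 2, the library where Marco was lowest. On CPM (counts per fixed library total) after TMM scaling between libraries, Scarb1 was also highest there (62.4, 67.8 and 55.3 CPM in replicates 1, 2 and 3). The ratio of Marco to Mrc1 was therefore 3.82, 2.17 and 11.2. A single complete transcript, Mrc1-201 of 1456 codons, held 98.8% ± 0.687 of the gene (SD, n = 3).

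Lrp1 (ENSMUSG00000040249.15; chromosome 10, 127538161 to 127621148, minus strand) encodes a very large receptor for apolipoprotein E, protease complexes and dying cells. The gene stood at 80.9, 76.0 and 109 TPM in replicates 1, 2 and 3 (88.7 ± 17.9, SD, n = 3), with replicate 3 highest. Stab1 (ENSMUSG00000042286.13; chromosome 14, 31139013 to 31168641, minus strand) encodes stabilin-1, an endocytic receptor of macrophages and sinusoidal endothelium. It stood at 51.1, 47.8 and 64.0 TPM (54.3 ± 8.56, SD, n = 3), in the same order of libraries. The ratio of Lrp1 to Stab1 was 1.58, 1.59 and 1.71, so in the first quantification it varied less between libraries than either level. In the second, Lrp1 stood at 25.8, 25.7 and 30.6 TPM and Stab1 at 16.8, 15.3 and 15.9 TPM. Stab1 was thus highest in replicate 1 there, and the ratio varied more than either level. The exons of Stab1 overlap those of Nt5dc2 on the opposite strand by 112 bases. Nt5dc2 stood at 9.59, 13.6 and 11.3 TPM, and its part in the Stab1 value was not tested.

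For Lrp1 and Stab1 the gene level was largely not that of the full-length message. The complete coding transcript held 43.9% ± 3.08 of Lrp1 TPM but 95.7% ± 0.479 of its expected counts, and for Stab1 24.5% ± 0.626 of TPM but 72.5% ± 1.79 of counts (SD, n = 3). The median of 9354 coding genes at a mean of 1 TPM or more was 95.0% of TPM, and 2.57% of them had a lower share than Stab1 and 6.15% a lower one than Lrp1. TPM divides reads by transcript length, so a few reads given to a short transcript weigh as much as many on a long one. Lrp1-208, a retained-intron transcript of 763 bases, held 43.1%, 43.6% and 38.7% of the gene in replicates 1, 2 and 3, on 925, 1432 and 1897 expected counts. Stab1-202, a noncoding transcript of 242 bases, held 21.6%, 31.7% and 30.0% on as few as 22.1, 52.8 and 66.0 counts. It exceeded the coding transcript Stab1-201 in replicates 2 and 3. The highest transcript was the same in every library for 6 of 10 members, all 6 among the 8 at a mean of 1 TPM or more. Of all coding genes at that level, 90.6% had the same one throughout. Stab1, Lrp1, Cd163 and Olr1 were the 4 without, of which Cd163 and Olr1 lay below that level. In the second quantification Stab1-201 and Lrp1-201 were the highest transcripts of their genes in every library.

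Other short Stab1 transcripts were the partial Stab1-207 of 413 bases (12.7% ± 1.48) and the retained-intron transcripts Stab1-205 (13.2% ± 1.83) and Stab1-204 (9.96% ± 2.43; SD, n = 3). Stab1-207 was at 0 in all 3 libraries of the second quantification. There the complete transcripts held more of their genes, 68.1% ± 3.78 for Lrp1 and 43.8% ± 2.30 for Stab1. Counted over complete coding transcripts alone, Lrp1 stood at 38.7 ± 6.12 in place of 88.7 TPM and Stab1 at 13.3 ± 2.18 in place of 54.3 TPM. The ratio of Lrp1 to Stab1 was then 2.91 ± 0.0606 (SD, n = 3), higher than on gene levels. For Marco, Msr1, Cd36, Mrc1, Scarb1 and Scarf1 the complete transcripts held between 89.9% and 99.5% of the gene.

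**Figure D3:**
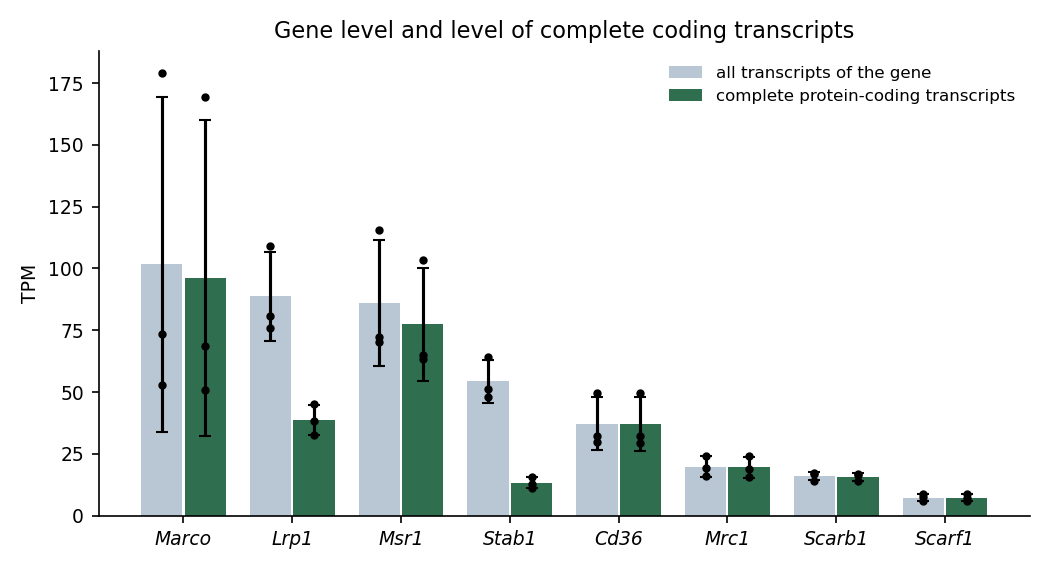
Mean TPM of 8 scavenger receptor genes over all transcripts (grey) and over complete protein-coding transcripts (green), with error bars of 1 SD and 1 point for each of the 3 libraries. Lrp1 and Stab1 drop, to 38.7 and 13.3 TPM, while the other 6 genes keep nearly all of their level.

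Scarf1 (ENSMUSG00000038188.17; chromosome 11, 75513540 to 75526582, plus strand) encodes a receptor first found in endothelium that binds acetylated lipoprotein and dying cells. It was the lowest of the present genes, at 8.88, 5.73 and 7.42 TPM in replicates 1, 2 and 3 (7.34 ± 1.58, SD, n = 3). The 8 endothelial markers summed to 15.3, 6.98 and 5.19 TPM in the same libraries, led by Kdr (9.26, 3.09 and 1.97 TPM), with Cdh5 at 0.36, 0.23 and 0.28 TPM and Tek on a single count in all. Scarf1 and the sum were both highest in replicate 1, but their lowest libraries differed. Scarf1 was lowest in replicate 2, as were Cdh5 and Pecam1 (1.12, 0.51 and 1.32 TPM), though Pecam1 was highest in replicate 3. The sum, Kdr and Vwf (4.47, 3.05 and 1.56 TPM) were lowest in replicate 3. The part of cells with these markers in the Scarf1 level was not tested.

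The haemoglobin receptor gene Cd163 (ENSMUSG00000008845.9; chromosome 6, 124304656 to 124330527, plus strand) stood at 0.04, 0.07 and 0.07 TPM. This rests on 9, 22 and 23 expected counts, with exact 95% Poisson intervals of 4.12 to 17.1, 13.8 to 33.3 and 14.6 to 34.5 counts. The oxidised-lipoprotein receptor gene Olr1 (ENSMUSG00000030162.14; chromosome 6, 129485244 to 129507165, minus strand), known mainly from endothelium, had 6, 1 and 7 counts, with intervals of 2.20 to 13.1, 0.0253 to 5.57 and 2.81 to 14.4. These intervals cover counting error only, and they overlap between libraries for either gene. All of the Cd163 signal of replicate 1 was given to transcript Cd163-202, and 85.8% and 84.8% of that in replicates 2 and 3 to Cd163-201, a split that such counts do not resolve.

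The order of mean levels in the first quantification was Marco, Lrp1, Msr1, Stab1, Cd36, Mrc1, Scarb1, Scarf1, Cd163 and Olr1. A pair of neighbours was held apart where the log2 ratio of TPM had the same sign in every library and a mean larger than its SD, which was so for 6 of 9 pairs. Marco and Lrp1 did not differ beyond their spread, with a log2 ratio of 0.01 ± 0.64, nor did Lrp1 and Msr1, at 0.06 ± 0.56 (SD, n = 3). Cd163 and Olr1 were not held apart by this rule, since both stood at 0.04 TPM in replicate 1. In the second quantification Cd163 was the higher in replicates 1, 2 and 3, still on few counts. It stood at 0.0655, 0.126 and 0.0807 TPM, beside 0.0278, 0.00559 and 0.0237 TPM for Olr1. In the first quantification Msr1 lay above Stab1 by 0.64 ± 0.50 and Stab1 above Cd36 by 0.57 ± 0.21. Cd36 lay above Mrc1 by 0.89 ± 0.66, Mrc1 above Scarb1 by 0.29 ± 0.22 and Scarb1 above Scarf1 by 1.15 ± 0.35. The order of Stab1 and Cd36 did not hold in the second quantification, with means of 16.0 and 21.8 TPM. Stab1 stood there at 16.8, 15.3 and 15.9 TPM in replicates 1, 2 and 3, and Cd36 at 16.5, 22.5 and 26.3 TPM. Msr1 (68.6, 47.1 and 36.7 TPM) exceeded Lrp1 (25.8, 25.7 and 30.6 TPM) in every library there.

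On complete coding transcripts of the first quantification the order changed, to Marco (96.3 TPM), Msr1 (77.3), Lrp1 (38.7), Cd36 (37.1), Mrc1 (19.6), Scarb1 (15.7), Stab1 (13.3) and Scarf1 (7.21). Msr1 then lay above Lrp1 in every library, by 0.97 ± 0.45 log2 units (SD, n = 3). Lrp1 and Cd36, at a log2 ratio of 0.09 ± 0.27, and Scarb1 and Stab1, at 0.25 ± 0.37, did not differ beyond their spread. The fourth place of Stab1 in the order of genes thus rested on its short transcripts.

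With 1 group there is no condition to compare, so the libraries were compared with each other against counting noise. edgeR fitted the rounded expected counts with dispersion 0 and tested for equal abundance in the 3 libraries, and a gene was called at an adjusted p under 0.05 and at least 1.5-fold between the highest and the lowest library. Of 9 members tested (Olr1 was too low), 4 were called, namely Marco, Cd36, Mrc1 and Msr1, against 20.7% of the 12372 genes tested. The median fold of the tested members was 1.54, beside 1.26 over all tested genes. By p alone 8 members passed, as did 71.1% of all genes, which is why the size of the fold was used.

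After TMM scaling, Marco stood at 188, 157 and 498 CPM in replicates 1, 2 and 3. This was 3.18-fold from the lowest to the highest, more than 97.6% of tested genes, and the adjusted p was too small for the software to write. Cd36 spanned 1.81-fold (edgeR, adjusted p = 6.59e-256), Mrc1 1.62-fold (edgeR, adjusted p = 3.79e-223) and Msr1 1.54-fold (edgeR, adjusted p = 1.65e-303). Lrp1 (1.30-fold), Stab1 (1.29-fold), Scarf1 (1.37-fold) and Scarb1 (1.23-fold) passed on p but not on fold, and Cd163 (1.69-fold, edgeR, adjusted p = 0.366) not on p.

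The called genes did not share a high library. Marco and Cd36 were highest in replicate 3, Msr1 in replicate 1 and Mrc1 in replicate 2. Over the 8 present genes, 4 had their highest TPM in replicate 3, 3 in replicate 1 and 1 in replicate 2. This tally is on TPM of the first quantification. After TMM scaling Scarb1 moved from replicate 1 to replicate 2. Without replicate 3, Marco spanned 1.22-fold and Cd36 1.22-fold and neither was called. Cd36 was also not called without replicate 1 (1.46-fold), Mrc1 without replicate 2 (1.11-fold) or 3 (1.42-fold), and Msr1 without replicate 1 (1.07-fold) or 2 (1.42-fold). Msr1 was also not called on the counts of the second quantification (1.46-fold) or with no filter on low counts (1.45-fold).

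**Figure D4:**
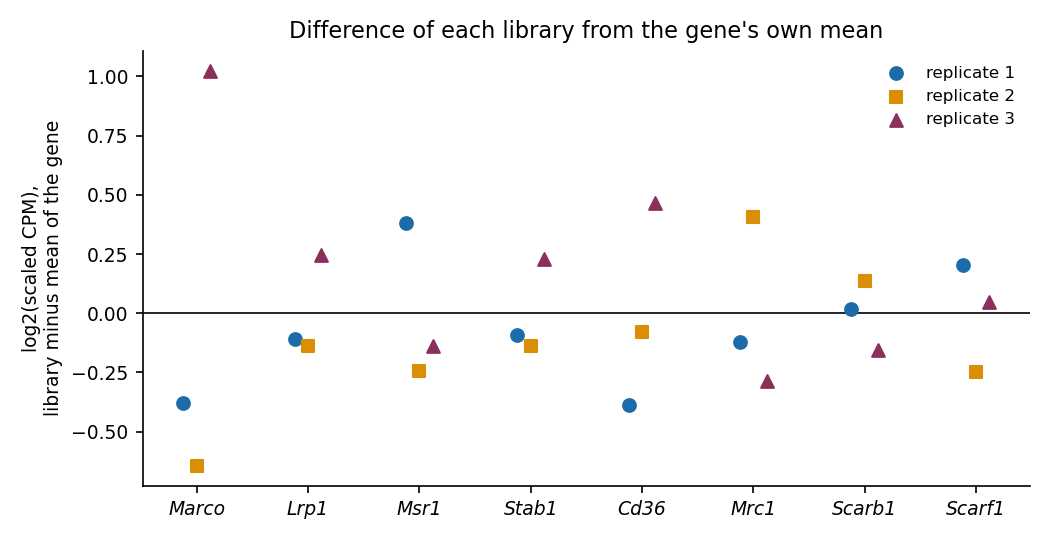
Log2 CPM after TMM scaling, each library minus the gene's own mean over the 3 libraries, for the 8 scavenger receptor genes above 1 TPM. Marco in replicate 3 lies 1.02 above its mean, the widest distance shown, and the high library differs between genes.

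Malat1, a long noncoding RNA that resides in the nucleus, stood at 612, 156 and 637 TPM in replicates 1, 2 and 3, lowest in replicate 2. The other nuclear RNAs listed, Neat1 (24.8, 12.7 and 52.4 TPM) and Xist (13.4, 0.66 and 3.42 TPM), were also lowest there. Unlike Malat1 they differed widely between replicates 1 and 3, with Neat1 higher in replicate 3 and Xist in replicate 1. The share of retained-intron transcripts of Msr1 was 2.10%, 0.441% and 1.49% of the gene, that of Scarb1 1.97%, 0.299% and 1.62% and that of Mrc1 1.62%, 0.370% and 1.5%. Replicate 2 was the lowest for these 3 genes, also in the second quantification. The same held for 69.6% of 5436 coding genes with such a transcript, and the share over all coding genes was 3.61%, 2.98% and 3.21%. Lrp1 (44.3%, 44.1% and 39.2%) and Stab1 (41.3%, 32.0% and 30.6%) did not follow this order, being lowest in replicate 3 in the first quantification. In the second, Lrp1 was again lowest in replicate 3, but Stab1 (56.8%, 44.5% and 45.5%) was lowest in replicate 2. The part of nuclear RNA in the receptor levels was not tested.

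**Figure D5:**
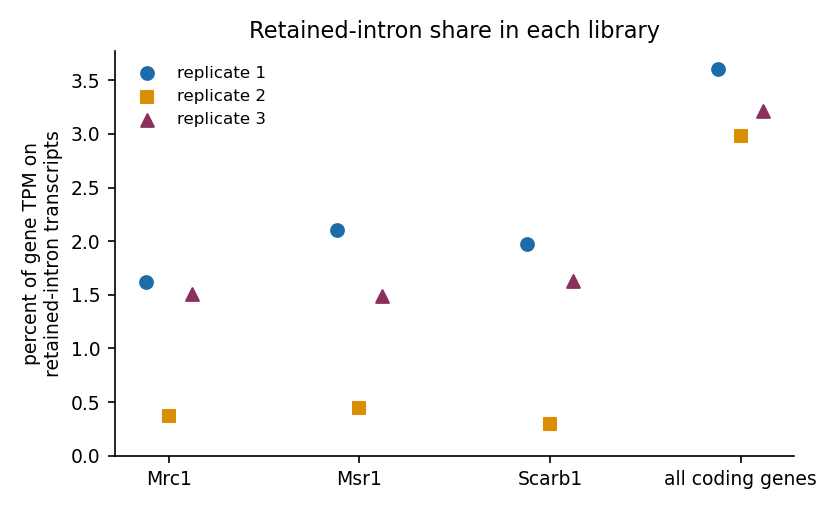
Percent of the gene's TPM on annotated retained-intron transcripts (y axis) for Mrc1, Msr1 and Scarb1 and over all coding genes, with 1 point per library. Replicate 2 is the lowest in each, at 0.299% to 0.441% for the 3 receptor genes. The values are of the first quantification, and Lrp1 and Stab1, lowest in replicate 3 there, are not shown.

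The level of a receptor also depended on the quantification. In the second quantification the 8 present members stood lower, for example 45.7 ± 25.5 TPM for Marco, 50.8 TPM for Msr1 and 27.4 TPM for Lrp1. Of 8 members at a mean of 1 TPM or more, 2 (Msr1 and Cd36) lay within 2-fold between the quantifications in every library, beside 13.8% of all genes at that level. Protein-coding genes held 32.7%, 27.4% and 27.8% of TPM in the first and 16.4%, 15.2% and 12.1% in the second. When both were rescaled to the sum of coding genes, 8 of 8 members lay within 2-fold, beside 95.8% of genes. Marco then differed by 1.04-fold to 1.07-fold, and it was highest in replicate 3 in both. Stab1 (1.52, 1.74 and 1.75-fold) and Lrp1 (1.57, 1.65 and 1.56-fold) stayed higher in the first quantification in replicates 1, 2 and 3.

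By the distance between the 3 library values, each as a deviation from the gene's own mean on the log2(TPM + 1) scale, the coding genes most like Marco were Slc13a3 (distance 0.427), Tspan3 (0.449) and Prkcb (0.592), of 4063 genes at a mean of 10 TPM or more. Slc13a3 stood at 19.5, 8.86 and 36.6 TPM in replicates 1, 2 and 3. None of the 4063 lay within 0.2 of Marco, and 3 libraries allow no more than this description.

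Of 31 other scavenger and lipoprotein receptor genes, 14 reached 1 TPM in every library and 5 had 0 counts (Lrp1b, Lrp2, Cd163l1, Scara5 and Scara3). The lysosomal class D receptor Cd68 was the highest, at 739, 667 and 419 TPM in replicates 1, 2 and 3, lowest in the library where Marco was highest. Cd5l, a secreted protein of macrophages, followed the order of Cd36, at 67.7, 75.9 and 108 TPM. Cxcl16 (80.4, 61.8 and 52.8 TPM), which also binds oxidised lipoprotein, Lrp12 (49.5, 46.8 and 32.7 TPM) and the glucan receptor gene Clec7a (19.8, 38.2 and 33.1 TPM) came next. Lrp5 (4.52, 5.43 and 8.65 TPM) and Lrp4 (2.89, 1.53 and 2.04 TPM) were lower and spread by over 1.5-fold. In the edgeR fit 11 of 19 tested genes of this list were called, beside 20.7% of all tested genes.

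Of 16 genes whose products act with or downstream of the receptors, 13 reached 1 TPM in every library, and 3 of 13 tested were called, beside 20.7% of all tested genes. Fabp5, a fatty acid carrier, was the highest, at 1449, 1412 and 779 TPM in replicates 1, 2 and 3, and Fabp4 stood at 36.2, 35.4 and 14.8 TPM. Both carriers were lowest in replicate 3, where Cd36 was highest. The lipid droplet coat gene Plin2 (204, 209.9 and 179 TPM), the haem-degrading enzyme gene Hmox1 (105, 86.5 and 124 TPM), the kinase gene Lyn (117, 66.9 and 84.9 TPM) and the talin gene Tln1 (55.0, 38.8 and 60.9 TPM) were present throughout. Gulp1, an adaptor for uptake of dying cells, had 0 counts.

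Of 13 transcription factor genes known to act on receptor genes, 12 reached 1 TPM in every library, and 5 of 13 tested were called, beside the same 20.7%. Spi1, the macrophage factor PU.1, stood at 118, 95.3 and 87.8 TPM in replicates 1, 2 and 3, and Maf at 86.4, 78.2 and 96.9 TPM. Nfe2l2, the factor of the oxidative stress response, stood at 64.7, 51.7 and 32.0 TPM, and Stat6 stood at 39.8, 35.7 and 32.4 TPM. Nr1h3, the oxysterol receptor LXR alpha, was at 45.3, 21.2 and 30.5 TPM. Replicate 2 was lowest, as for Marco, Lrp1, Msr1, Stab1 and Scarf1 among the present receptor genes. Cebpb, at 47.5, 14.0 and 14.3 TPM, was high in replicate 1 alone, where Msr1, Scarb1 and Scarf1 also had their highest TPM. Spi1, Nfe2l2, Stat6 and Nr1h3 had their highest TPM there as well. Protein-coding genes held 32.7% of TPM in replicate 1, beside 27.4% and 27.8% in replicates 2 and 3. The part of this difference in the shared high library was not tested. On CPM after TMM scaling Scarb1 was highest in replicate 2 (62.4, 67.8 and 55.3 CPM in replicates 1, 2 and 3). Spi1 (1.18-fold) and Stat6 (1.17-fold) were not called.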

How the data were processed

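Total RNA of the cytosolic fraction was measured in 3 libraries of 1 group. The authors used the build mm10 with GENCODE M21, per the file deposited beside the tables. Which programs and strand option were run is not given in the sources used here. Deposited gene tables, in the layout of RSEM per the file headers, give expected counts, TPM and the bounds of a TPM interval, taken here as a signal that is never negative. The deposited transcript tables give TPM and the percent of a gene's abundance per transcript. A second deposited set of transcript tables, in the layout of kallisto per the file headers, gives TPM, summed here per gene.

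Members and gene lists were chosen with earlier results of these data known. Genes named beside the members were the 5 highest of a list, at most 5 at 1 TPM or more in every library with a 1.5-fold span of TPM, and the 3 nearest to Marco; transcripts were named at 10% or more of a gene. Complete coding transcripts have both ends of the coding sequence annotated. Expected counts were rounded and fitted in edgeR 4.0.16 (R 4.3.3; TMM, filterByExpr, likelihood-ratio test at dispersion 0, Benjamini-Hochberg over 12372 genes). A quasi-likelihood test needs residual degrees of freedom, and a fit with a coefficient for each library leaves none. The rule was tested on simulated counts of 12286 genes for this comparison, with 50 genes changed by each fold. It recovered 0 for a fold of 1.25, 30 for 1.5, 47 for 2 and 48 for 4, and it called 0 of 12088 unchanged genes (8 by p alone). The simulated counts held Poisson counting noise alone, which is what the test assumes. They therefore do not measure how often the rule errs in libraries with further spread. DESeq2 1.42.0 size factors were an alternative. Other steps used Python 3.11.15, pandas 2.3.3 and scipy 1.17.1. No amino acid sequence was used here.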

Additional observations from a re-analysis of the deposited data

How the results depend on the processing

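The count of 8 members at 1 TPM or more was 8 under each alternative run (the second quantification, TPM rescaled to coding genes, complete coding transcripts and each library left out). The 4 members called against counting noise were 4 with DESeq2 size factors, with the counts of the second quantification and by a chi-square test, and 3 with no filter on low counts. With a library left out the count was between 1 and 2, and these fits compare fewer libraries. On the second quantification Msr1 was not called and Cd163 was (1.96-fold). The members within 2-fold between quantifications numbered 2 on deposited TPM and 8 with both rescaled to coding genes, which removes the difference in noncoding share. Resolved neighbours numbered 6 of 9, and between 5 and 8 with a library left out. Members with the same highest transcript in every library numbered 6 of 10, 7 in the second quantification and between 7 and 8 with a library left out. The genes were not the same, since in the second quantification Stab1, Lrp1 and Olr1 kept their highest transcript and Msr1, Cd36 and Cd163 did not. In the first quantification the share was 90.6% for coding genes at a mean of 1 TPM or more, a level that Cd163 and Olr1 did not reach. The use of complete coding transcripts alone was chosen after seeing the data. No paired analysis was possible because the series has 1 group. Depth limits Cd163 and Olr1, and transcript shares that rest on few counts, such as Stab1-202.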

Other observations

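Lrp1-205, an Lrp1 transcript of 679 bases annotated for nonsense-mediated decay (chromosome 10, 127546395 to 127549917), took 8.13%, 12.1% and 19.5% of the gene's TPM in replicates 1, 2 and 3. It stood at 6.58, 9.21 and 21.3 TPM, on 147, 336 and 805 expected counts. The second quantification gave 1.53, 1.92 and 5.84 TPM, with replicate 3 highest as well. Over the same libraries the full-length Lrp1-201 stood at 37.9, 32.8 and 44.8 TPM, a narrower span.

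Stab1-205, a retained-intron transcript of 2427 bases at the start of the gene (chromosome 14, 31158510 to 31168595), held 13.2% ± 1.83 of Stab1 TPM in the first and 31.8% ± 1.84 in the second quantification (SD, n = 3). It carried 858, 1068 and 1380 expected counts in replicates 1, 2 and 3, more than the shorter Stab1-202 that led the gene in replicates 2 and 3 of the first quantification.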
